A study of Mus musculus with 20 samples.

Results

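Antigen presentation was examined through 10 named genes: the MHC class I genes B2m, H2-K1, H2-D1 and H2-T23, the MHC class II genes H2-Aa, H2-Ab1 and H2-Eb1 with their chaperone Cd74, and the peptide loading genes Tap1 and Tapbp. They were chosen by symbol, not by a rule on measured values, although earlier results of these data were known. They came from 35580 genes with at least 1 transcript in the deposited tables. The estimated counts and TPM (a level scaled to transcript length and to the total of the sample) of their 41 transcripts were summed per gene. The RNA-seq series holds 20 samples of mouse brain, 5 each of WT hippocampus, miR-324-null hippocampus, WT neocortex and miR-324-null neocortex, all from male mice aged 13.5 months with the strain given as C57BL/6J. The miR-324-null animals carry a global CRISPR/Cas9 deletion of Mir324 in every tissue, so no cell type was targeted, while the WT animals come from the same breeding stock. The stock began with edited embryos that carried CBA/ca as well as C57BL/6 ancestry. After breeding to C57BL/6J, WT and miR-324-null lines were derived from carriers, so that an animal's genotype and its line cannot be told apart. Mir324 itself was not analysed here, and genotype rests on the sample labels. Nothing in the labels states which hippocampal and neocortical samples came from the same animal, and p values therefore measure the spread between these samples.

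MHC class I molecules are cell surface complexes of a polymorphic heavy chain, such as those encoded by H2-K1 and H2-D1, with the invariant light chain beta-2-microglobulin encoded by B2m. Peptides made by the proteasome enter the endoplasmic reticulum through the TAP transporter, of which Tap1 encodes a subunit, and are loaded with the help of tapasin, the product of Tapbp. MHC class II molecules, heterodimers of an alpha and a beta chain, are assembled with the invariant chain Cd74 in professional antigen presenting cells and present peptides taken up from outside the cell. In brain, class I transcripts are found in neurons, glia and endothelium, whereas class II transcripts are best known from macrophages at the brain's borders, dendritic cells and activated microglia.

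In all, 8 of the members lie in or beside the H2 complex on chromosome 17 of GRCm38. From the centromeric side these are Tapbp at chr17:33915899-33929292, H2-K1 at chr17:33996017-34000347, Tap1 at chr17:34187553-34197225, H2-Ab1 at chr17:34257689-34269419, H2-Aa at chr17:34282744-34287823, H2-Eb1 at chr17:34305867-34316674, H2-D1 at chr17:35262730-35267499 and H2-T23 at chr17:36029773-36032855. B2m lies apart at chr2:122147686-122153083, inside the span of Patl2 on the opposite strand, which was listed at no more than 0.260 CPM, counts scaled to the effective library size, in any sample. Tap1 shares 212 bases with Psmb9, an immunoproteasome gene on the opposite strand, in which reads of both genes cannot be told apart without strand, and whether strand was used is not given in the sources used here. Tapbp shares 3422 bases of its span with Zbtb22 on the same strand, a gene at 29.0 to 41.1 CPM. Of the 31-base words of Tapbp's protein coding transcripts, 96.1% occur in the transcripts of no other gene, so little of that sequence could be shared. How reads from any shared part were split between this pair is uncertain.

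Both arms of the deleted microRNA are shown first, because a match to their seed is the letter pattern by which a transcript could pair with them. The mature sequences, from RefSeq on GRCm38.p6, carry the seed (bases 2 to 8) in capitals.
miR-324-5p: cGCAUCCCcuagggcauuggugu
miR-324-3p: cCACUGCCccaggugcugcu
The reverse complement of the miR-324-5p seed, GGGATGC, was found in the annotated 3′UTR of 1 of the 10 members, Cd74, and that of the miR-324-3p seed, GGCAGTG, in 1, Tapbp. Over all 21001 genes with an annotated 3′UTR, 7.77% held the first and 13.4% the second. The Tapbp match lies in the last exon at chr17:33928695-33928701 on the plus strand, and is shown with its flanks.
Tapbp: cgggaggcagaGGCAGTGgatctctgacat
Neither Tapbp nor Cd74 was called between genotypes in the tests below, and the interval of Cd74 was wide.

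The promoters of the class I genes are shown because they hold the letters through which interferon and NF-kB factors are known to act on these genes. RefSeq promoters on GRCm38.p6, from 250 bases before to 50 after each start site, were matched for 8 of the 10 members, all but H2-Ab1 and Cd74. Capitals mark GAAA, 2 bases of any kind and GAAA in B2m and H2-T23, or the shorter GAANNGAAA in H2-K1 and H2-D1, spaced pairs bound by interferon regulatory factors, read on either strand, and in H2-K1 also GGGATTCCC, the core of an NF-kB site.
H2-K1: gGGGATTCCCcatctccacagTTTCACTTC
H2-D1: atctcctcagTTTCACTTCtgcacctaacc
B2m: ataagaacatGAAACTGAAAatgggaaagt
H2-T23: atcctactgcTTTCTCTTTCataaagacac
These windows lie at chr17:34000429-34000458 on the minus strand, chr17:35262934-35262963 on the plus strand, chr2:122147538-122147567 on the plus strand and chr17:36032806-36032835 on the minus strand. The longer pair was held by 3.44% of all 32851 promoters in that table and, among the members, by B2m and H2-T23. GAANNGAAA was held by 7.52% of them and, among the members, by H2-K1 and H2-D1, and GGGATTCCC by 0.353% and by the same pair of members. Both strands were searched, and a promoter could hold more than 1 of these patterns. These motifs were chosen after the promoters of the members had been read, and a match is a description of letters, not of binding.

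Depth was between 12752439 and 19617765 estimated counts per sample. Tissue markers followed the labels, as the summed level of 5 hippocampal markers (Prox1, C1ql2, Spink8, Fibcd1, Tdo2) was 278 to 406 CPM in the 10 hippocampal samples and 25.5 to 60.2 CPM in the 10 neocortical samples. In all, 3 samples stood apart by Ttr, the transthyretin gene made in the choroid plexus. WT hippocampus replicate 3 held 4321 CPM of Ttr, miR-324-null hippocampus replicate 5 held 3756 CPM and miR-324-null neocortex replicate 2 held 759 CPM, whereas the other 17 samples held between 10.1 and 110.04 CPM.

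Every member was detected in every sample and all 10 passed the filter on low counts in each comparison. On the TPM scale, which allows levels of different genes to be compared, B2m was the most abundant in all groups, at 172 ± 17.7 (SD, n = 5) in WT hippocampus, 163 ± 25.3 in miR-324-null hippocampus, 196 ± 13.1 in WT neocortex and 188 ± 19.4 in miR-324-null neocortex. Its range did not meet that of any other member. In WT hippocampus the order of mean TPM was then H2-D1 (36.6), H2-K1 (30.4), Tapbp (20.8), H2-T23 (13.9), Cd74 (9.40), H2-Aa (4.43), Tap1 (3.93), H2-Ab1 (3.78) and H2-Eb1 (3.70). Of these neighbours H2-D1 and H2-K1 overlapped in range, and so did every neighbouring pair from H2-T23 downward. H2-T23 stood higher in this order in neocortex, where its mean TPM of 28.7 in WT samples overlapped in range with the 33.1 of H2-K1. Mean TPM of B2m was 2.12 times the summed mean TPM of the 3 heavy chains H2-K1, H2-D1 and H2-T23 in WT hippocampus and 1.79 times in WT neocortex.

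**Figure D1:**
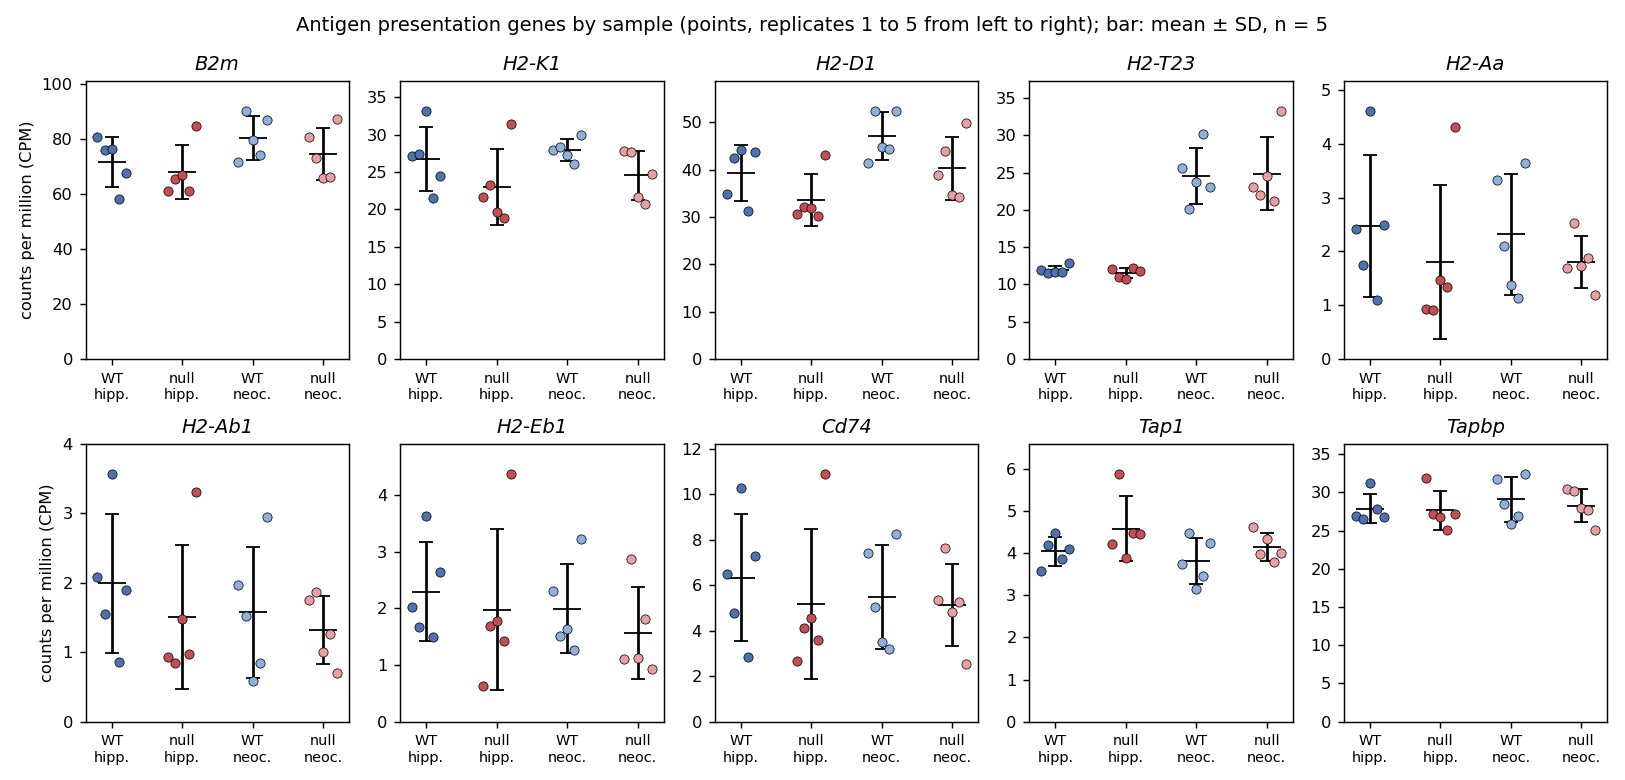
Level of each of the 10 genes in CPM (y axis, linear, from 0) in the 4 groups (x axis). Points are the 5 samples of a group and bars the mean ± SD. Points of H2-T23 lie between 10.7 and 12.9 CPM in hippocampus and between 20.1 and 33.3 CPM in neocortex, while the groups of the other 9 genes overlap.

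The clearest difference among the members was one of tissue and concerned H2-T23, which encodes Qa-1, a non-classical class I heavy chain that is a ligand of CD94/NKG2 receptors on natural killer and T cells. H2-T23 was lower in hippocampus than in neocortex in both genotypes, by 2.06 times in WT samples and 2.13 times in their miR-324-null counterparts. In WT hippocampus its level was 11.98, 11.5, 11.6, 11.6 and 12.9 CPM in replicates 1 to 5, against 25.6, 20.1, 23.7, 30.2 and 23.1 CPM in WT neocortex. In miR-324-null hippocampus it was 12.1, 10.9, 10.7, 12.2 and 11.9 CPM, against 23.004, 22.03, 24.6, 21.2 and 33.3 CPM in miR-324-null neocortex. All 10 hippocampal samples lay below all 10 neocortical samples, and the hippocampal values were also the tighter, with a coefficient of variation of 4.71% in WT hippocampus and 15.2% in WT neocortex. The log2 fold change of hippocampus over neocortex was -1.04 ± 0.10 (SE) in WT (edgeR quasi-likelihood test, adjusted p value = 2.32e-06) and -1.09 ± 0.12 in miR-324-null samples (edgeR, adjusted p value = 3.22e-05). Its tissue difference did not depend detectably on genotype, since the interaction was -0.06 on the log2 scale with a 95% interval from -0.40 to 0.27 (edgeR, adjusted p value = 0.992).

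H2-T23 was the 1 member of 10 called between tissues in each genotype, at an adjusted p value of at most 0.05. Over all genes tested, 36.1% were called between tissues in WT (18.0% lower and 18.1% higher in hippocampus) and 27.4% in the null samples (13.6% lower and 13.8% higher). At an unadjusted p value of at most 0.05, 2 members passed in WT against 44.1% of all genes, and 1 in the null samples against 38.5%. Tissue groups that did not overlap were found for 26.5% of all genes in WT and 21.1% in the null samples. Its most abundant transcript, H2-T23-201, differed in the same direction, with 12.4 ± 0.755 TPM in WT hippocampus and 25.01 ± 3.09 TPM in WT neocortex (SD, n = 5 each). H2-T23 is also the member with the least sequence of its own: 51.0% of the 31-base words of its protein coding transcripts occur in no other gene's transcripts in the tables, compared with 78.4% for H2-K1, 72.2% for H2-D1 and 100% for B2m. The genes sharing most of its words were the pseudogene H2-T-ps, with 25.5% of them, and H2-Bl, with 13.04%. Both were listed at low levels, H2-T-ps at 1.06 CPM or less and H2-Bl at 1.57 CPM or less in every sample. H2-Q1 held 11.7% of the words at no more than 1.16 CPM, and H2-D1 held 10.7% and was the more abundant gene, at 30.3 to 52.4 CPM.

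Neighbouring class Ib genes were examined from the list of 20 class I heavy chains, of which 14 were tested between tissues. In WT samples 4 of them, H2-T23 included, were lower in hippocampus and 0 higher, which is 28.6% against 36.1% of all genes. In miR-324-null samples 5, again with H2-T23, were lower and 0 higher, or 35.7% against 27.4% of all genes. H2-T22, the most abundant heavy chain of the list that is not a member and a ligand of gamma delta T cells, lies next to H2-T23 on the chromosome. It was at 20.2 ± 2.56 CPM in WT hippocampus and 29.7 ± 0.836 CPM in WT neocortex, a log2 fold change of -0.55 ± 0.08 (edgeR, adjusted p value = 7.19e-05), and -0.56 ± 0.09 in miR-324-null samples (edgeR, adjusted p value = 0.000403). H2-Bl was also lower in hippocampus, with log2 fold changes of -1.33 ± 0.41 in WT and -2.78 ± 0.47 in the null samples, at levels that averaged 0.160 to 1.21 CPM over the groups. In WT samples the call of H2-Bl was lost without WT hippocampus replicate 1 or 3 or WT neocortex replicate 3 or 4, with adjusted p values from 0.0513 to 0.0572 (edgeR). H2-M5 (-1.04 ± 0.22) was called in WT, although not with the transcript length as an offset (edgeR, adjusted p value = 0.137). H2-M3, which presents formylated peptides (-0.75 ± 0.16), and H2-T24 (-0.76 ± 0.18) were called in the null samples. Dependence of these tissue differences on genotype was tested by the interaction, which called 0 of 16 genes of the list, against 0.0195% of all genes. At an unadjusted p value of at most 0.05 (edgeR), 3 of the 16 passed, H2-T24, H2-M5 and H2-Bl, against 5.57% of all genes.

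The genes around the complex moved in both directions between tissues. Of the 139 genes tested that start between 33 and 38 Mb on chromosome 17, 14 were higher and 23 lower in WT hippocampus than in WT neocortex, which is 26.6% of them against 36.1% of all genes. In miR-324-null samples 11 of 137 were higher and 14 lower, or 18.2% against 27.4%. Of the 10 with the smallest adjusted p values in WT, the tenascin gene Tnxb (log2 fold change 2.39), Prrt1 (0.74), the complement gene C4b (1.45) and Atf6b (0.45) were higher in hippocampus. The other 6 were lower: H2-M6-ps (-3.40), H2-T23, Tcf19 (-1.47), Cchcr1 (-0.93), Rnf39 (-1.25) and H2-T22. In miR-324-null samples the 10 were Tcf19 (-1.51), Tnxb (2.29), H2-T23, C4b (1.42), Prrt1 (0.78), Cdsn (-1.56), H2-T22, H2-Bl, Atf6b (0.37) and H2-DMa (0.55). The class II members in the middle of the complex were not called in either genotype.

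**Figure D2:**
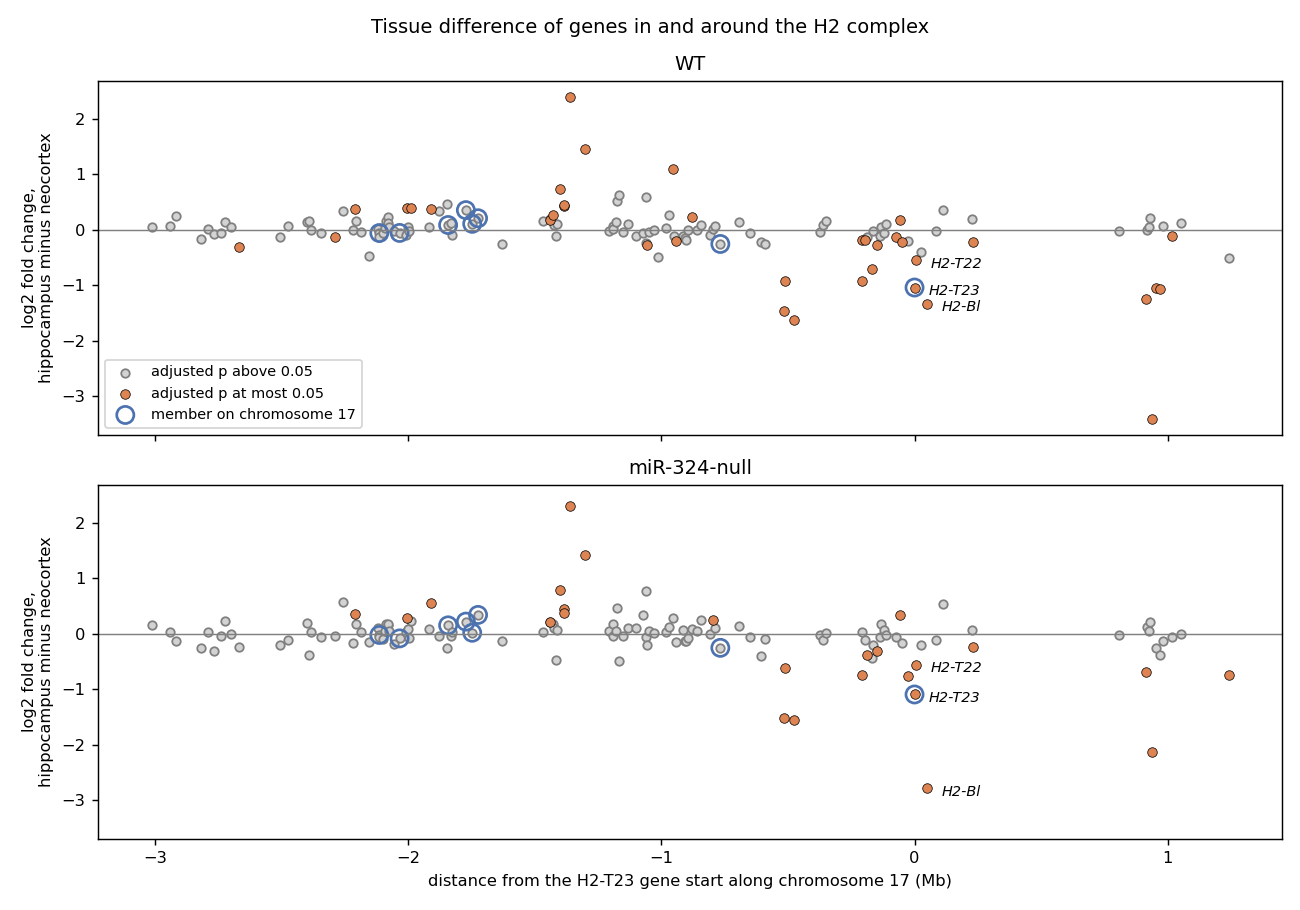
Log2 fold change of hippocampus over neocortex (y axis) of each gene tested around the H2 complex against its distance in Mb from the start of H2-T23 (x axis), in WT and miR-324-null samples. Orange points passed an adjusted p value of 0.05, grey points did not, and blue rings mark members. H2-T23, at -1.04 and -1.09, is the 1 ringed gene that is orange in both panels.

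Between genotypes, 0 of the 10 members were DE in either tissue by edgeR's quasi-likelihood test at an adjusted p value of at most 0.05, and 0 by DESeq2. Over all genes, 17 of 14796 (0.115%) were called in hippocampus and 47 of 14930 (0.315%) in neocortex, so 0 calls among 10 genes is near the background. Of all genes, 0.0676% were called higher and 0.0473% lower in miR-324-null hippocampus, and 0.161% higher and 0.154% lower in neocortex. No member had groups that did not overlap, against 2.55% of all genes in hippocampus and 2.3% in neocortex. At an unadjusted p value of at most 0.05, 0 members passed in hippocampus and 1, H2-K1, in neocortex, against 11.1% and 12.2% of all genes. Most fitted differences had the same sign: 9 of 10 members were below 0 in miR-324-null hippocampus, with a median log2 fold change of -0.21 against 0.00 for all genes tested, and 8 of 10 in neocortex, with a median of -0.14 against 0.00. These signs are not independent, since class II members with Cd74, and B2m with H2-K1 and H2-D1, varied together over the samples. Pathway genes that are not members were below 0 for 18 of 32 in hippocampus and 17 of 33 in neocortex, with medians of -0.01 and 0.00.

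The classical class I heavy chains H2-D1 and H2-K1, which present peptides to cytotoxic T cells, had fitted values below 0 in both tissues, and neither was called. H2-D1 was at 35.0, 42.5, 44.2, 31.2 and 43.7 CPM in WT hippocampus and at 30.6, 32.1, 31.8, 30.3 and 43.2 CPM in miR-324-null hippocampus. In neocortex it was at 41.5, 52.4, 44.8, 44.3 and 52.4 CPM in WT and at 38.9, 44.0, 34.6, 34.2 and 49.9 CPM in miR-324-null samples. In miR-324-null hippocampus, 4 of 5 samples lay between 30.3 and 32.1 CPM, below 4 of the 5 WT samples, and the exception was replicate 5, the Ttr-rich one. The log2 fold change was -0.23 ± 0.12 in hippocampus (95% interval -0.49 to 0.03, edgeR, adjusted p value = 0.504) and -0.22 ± 0.10 in neocortex (-0.44 to 0.01, edgeR, adjusted p value = 0.433). Between tissues H2-D1 was -0.26 ± 0.10 in WT (edgeR, adjusted p value = 0.0635), which DESeq2 called (adjusted p value = 0.0442), as did edgeR with the transcript length as an offset (adjusted p value = 0.0325). It was also called without WT hippocampus replicate 3 (edgeR, adjusted p value = 0.0461) or WT neocortex replicate 1 (0.0468). It was not called with all 20 samples in one fit (edgeR, adjusted p value = 0.114). Nor was it called without any other single sample, where adjusted p values reached 0.144 (edgeR). In the null samples H2-D1 was -0.25 ± 0.12 (edgeR, adjusted p value = 0.150), and -0.36 without hippocampus replicate 5 (edgeR, adjusted p value = 0.0294). Without both Ttr-rich miR-324-null samples H2-D1 was -0.33 and not called (edgeR, adjusted p value = 0.0647). In the null samples it was also not called by DESeq2 (adjusted p value = 0.130) or with the transcript length as an offset (edgeR, adjusted p value = 0.202).

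H2-K1, the other classical heavy chain among the members, was at 27.1, 27.4, 33.2, 21.5 and 24.5 CPM in WT hippocampus and 21.7, 23.3, 19.6, 18.9 and 31.5 CPM in miR-324-null hippocampus. In neocortex it was at 28.01, 28.4, 27.3, 26.1 and 29.99 CPM in WT and at 27.8, 27.7, 21.7, 20.8 and 24.8 CPM in miR-324-null samples. Groups overlapped in both tissues, and in hippocampus the highest sample of each genotype was again the Ttr-rich one. The log2 fold change was -0.22 ± 0.14 in hippocampus (95% interval -0.53 to 0.09, edgeR, adjusted p value = 0.606) and -0.18 ± 0.08 in neocortex (edgeR, unadjusted p value = 0.0484, adjusted p value = 0.405).

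B2m, the light chain on which surface expression of all these heavy chains depends, was at 80.5, 75.7, 76.3, 57.9 and 67.4 CPM in WT hippocampus and 60.9, 65.4, 66.8, 61.1 and 84.6 CPM in miR-324-null hippocampus. In neocortex it lay between 71.5 and 90.1 CPM in WT and between 65.7 and 87.1 CPM in miR-324-null samples. The groups overlapped, and the log2 fold change was -0.08 ± 0.10 in hippocampus and -0.10 ± 0.09 in neocortex, with 95% intervals from -0.31 to 0.15 and from -0.29 to 0.08. H2-T23 had fitted genotype differences of -0.04 ± 0.08 and 0.02 ± 0.13, with intervals from -0.21 to 0.12 and from -0.25 to 0.30.

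Without the Ttr-rich samples, 4 against 4, the hippocampal fold changes of H2-D1 and H2-K1 were -0.29 ± 0.10 and -0.27 ± 0.10, with unadjusted p values of 0.0151 and 0.0174 and adjusted p values of 0.339 and 0.349 (edgeR), an alternative chosen after the data had been seen. For B2m the value was then -0.15 ± 0.09 (edgeR, adjusted p value = 0.567). Of the marker lists, that of brain endothelium moved most with class I. The 6 brain endothelial markers (Cldn5, Pecam1, Flt1, Tek, Slco1a4, Cdh5) summed to 227 to 278 CPM in WT and 191 to 268 CPM in miR-324-null hippocampus. Fitted values were below 0 for 6 of 6. An unadjusted p value of 0.05 was passed by 2 of them (edgeR), against 11.1% of all genes, and the adjusted one by 0. Over the 20 samples, with group means removed, the mean log2 CPM of the 4 class I members had a Pearson correlation of 0.68 with the log2 sum of these markers, a description over libraries that share dissection and depth. The other marker lists correlated with class I at -0.35 (T cells) to 0.46 (choroid plexus), among them microglia at 0.13 and border macrophages at -0.10. Over the 17 samples without high Ttr, the value of brain endothelium was 0.62. The other lists then ran from -0.58 (border macrophages) to 0.34 (neocortex), with choroid plexus at -0.14, meningeal fibroblasts at -0.47 and microglia at 0.09. The part of endothelial cells in the class I values was not tested. In neocortex the hippocampal markers summed to 25.5 to 28.2 CPM in WT and 28.2 to 60.2 CPM in miR-324-null samples, and their part in the class I values was not tested either. Fewer cells of a type and less RNA per cell cannot be told apart in bulk tissue.

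**Figure D3:**
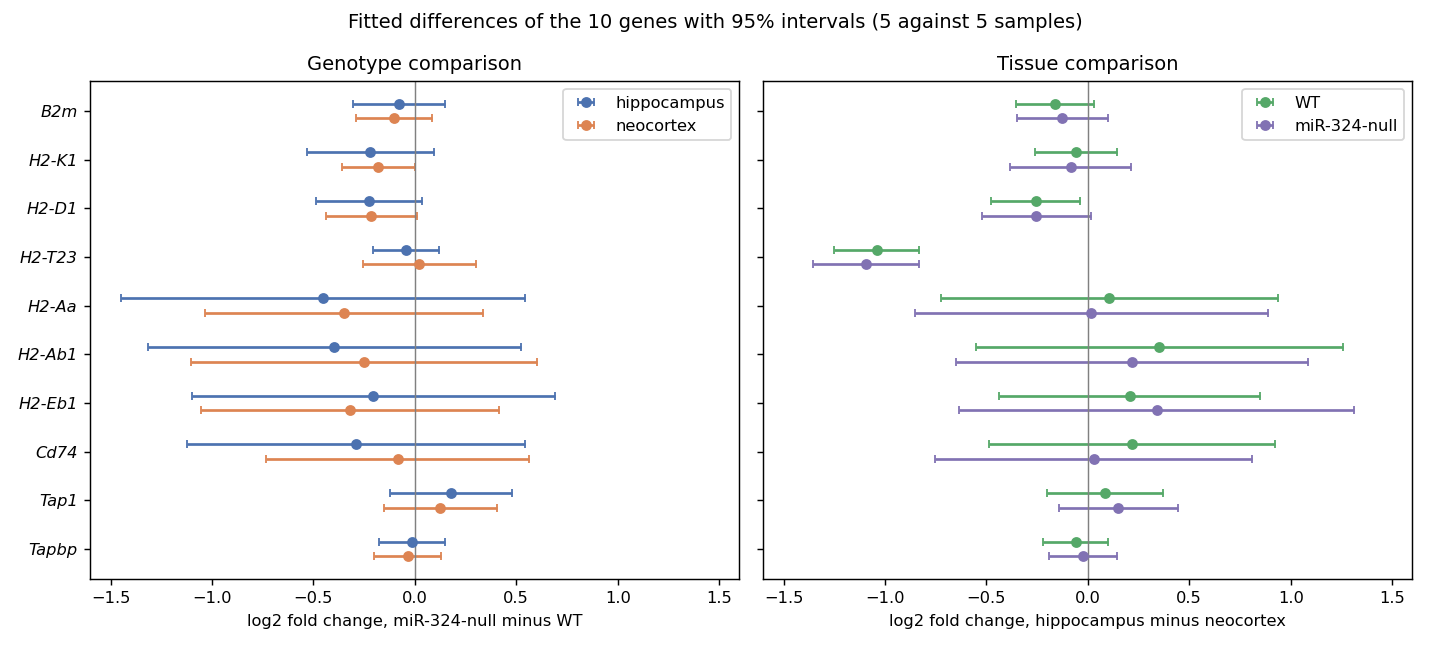
Fitted log2 fold change (x axis) of each member with its 95% interval, for miR-324-null over WT in the 2 tissues (left) and for hippocampus over neocortex in the 2 genotypes (right). H2-T23 lies near -1 in both tissue comparisons, and the intervals of H2-Aa, H2-Ab1, H2-Eb1 and Cd74 are the widest.

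Of the peptide loading members, Tapbp varied little and Tap1 more. Tapbp lay between 25.04 and 32.5 CPM over all 20 samples, a ratio of 1.30 between its highest and lowest sample and the smallest among the members. Its genotype difference was -0.01 ± 0.07 on the log2 scale in hippocampus (95% interval -0.17 to 0.15) and -0.04 ± 0.08 in neocortex (-0.20 to 0.13), which bounds it more narrowly than any class II member. Tap1 was the 1 member with positive fitted values in both tissues, at 3.58, 4.20, 4.48, 3.86 and 4.09 CPM in WT hippocampus and 4.21, 5.89, 3.88, 4.47 and 4.45 CPM in miR-324-null hippocampus. These groups overlapped and the log2 fold change was 0.18 ± 0.14 (edgeR, adjusted p value = 0.671). With the transcript length as an offset it turned to -0.28 (edgeR, adjusted p value = 0.571), while the neocortical value went from 0.13 to 0.37 (edgeR, adjusted p value = 0.530). Over all 20 samples Tap1 lay between 3.16 and 5.89 CPM, a ratio of 1.87. None of its 7 transcripts averaged over 1.37 TPM in any group, so the division of counts among them rests on few reads.

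The list of 14 genes for class I peptide supply and loading was tested in full. In the genotype comparisons 0 of 14 were called in either tissue. Calr, the chaperone calreticulin and the most abundant gene of the list that is not a member, averaged 349 ± 20.3 CPM in WT hippocampus against 408 ± 71.6 CPM in the null hippocampus, or 0.23 ± 0.10 on the log2 scale (edgeR, unadjusted p value = 0.0422, adjusted p value = 0.431). Between tissues, 1 was higher and 1 lower in WT hippocampus, which is 14.3% of the list against 36.1% of all genes. Psme1, a subunit of the proteasome activator PA28, was higher at 0.23 ± 0.08 (edgeR, adjusted p value = 0.0339), and the immunoproteasome subunit Psmb10 was lower at -0.33 ± 0.08 (edgeR, adjusted p value = 0.00491). In miR-324-null samples Psme2, the partner of Psme1, was higher in hippocampus at 0.31 ± 0.08 (edgeR, adjusted p value = 0.00875). Psme2 was the 1 gene called there, 7.14% of the list against 27.4% of all genes. The call of Psme1 was lost without WT hippocampus replicate 3 or 4 or WT neocortex replicate 2, 3 or 4 (edgeR, adjusted p values from 0.0569 to 0.0844), with all 20 samples in one fit (0.109) and with the transcript length as an offset (0.0633), and that of Psme2 with the offset (0.0529).

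The class II members and Cd74, which lies apart from them on chromosome 18, were low, and varied among samples of the same group far more than the class I members did. H2-Aa, the class II alpha chain, was at 2.41, 1.74, 4.61, 1.10 and 2.50 CPM in WT hippocampus and 0.936, 0.918, 1.48, 1.34 and 4.31 CPM in miR-324-null hippocampus. Cd74, the invariant chain, was at 6.51, 4.78, 10.3, 2.83 and 7.27 CPM in WT hippocampus and 2.65, 4.13, 4.55, 3.58 and 10.9 CPM in miR-324-null hippocampus. For both genes the highest sample of each genotype was the Ttr-rich one, and the groups overlapped. In neocortex H2-Aa was at 3.33, 2.10, 1.38, 1.13 and 3.64 CPM in WT and 1.69, 2.53, 1.72, 1.87 and 1.19 CPM in miR-324-null samples. Cd74 there was at 7.41, 5.07, 3.49, 3.18 and 8.23 CPM and at 5.35, 7.63, 4.81, 5.28 and 2.55 CPM, in the same order. Replicates 1 and 5 of WT neocortex were the high ones of their group for both genes, replicate 2 was the high one in miR-324-null neocortex, and replicate 5 the low one.

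The beta chains H2-Ab1 and H2-Eb1 followed the same samples. H2-Ab1 was lowest at 0.592 CPM in WT neocortex replicate 3 and highest at 3.57 CPM in WT hippocampus replicate 3. H2-Eb1 was lowest at 0.624 CPM in miR-324-null hippocampus replicate 1 and highest at 4.38 CPM in miR-324-null hippocampus replicate 5. Over the 20 samples, with group means removed, Pearson correlations between the log2 CPM of these 4 genes were 0.77 to 0.95, the highest being 0.95 for H2-Aa with Cd74. H2-K1 correlated with them at 0.57 to 0.69, B2m at 0.35 to 0.50 and H2-T23 at -0.37 to -0.25. The points of these correlations share library and depth.

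None of the 4 was called between genotypes or between tissues. In hippocampus the log2 fold changes of miR-324-null over WT were -0.45 ± 0.46 for H2-Aa, -0.40 ± 0.42 for H2-Ab1, -0.20 ± 0.41 for H2-Eb1 and -0.29 ± 0.38 for Cd74, with adjusted p values from 0.764 to 0.898 (edgeR). In neocortex they were -0.35 ± 0.32, -0.25 ± 0.39, -0.32 ± 0.34 and -0.08 ± 0.30, with adjusted p values from 0.712 to 0.945. The intervals were wide, from -1.45 to 0.54 for H2-Aa in hippocampus, and estimated counts behind a single value were as low as 8 for H2-Eb1 and 9 for H2-Ab1, so differences of this size were not detectable. Between tissues the log2 fold changes in WT were 0.11 ± 0.38 for H2-Aa, 0.35 ± 0.42 for H2-Ab1, 0.21 ± 0.30 for H2-Eb1 and 0.22 ± 0.33 for Cd74.

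For 3 of the 4 genes the direction of the tissue value in miR-324-null samples changed without the Ttr-rich libraries. Without them the tissue difference in miR-324-null samples turned from 0.03 to -0.25 for Cd74, from 0.02 to -0.44 for H2-Aa and from 0.22 to -0.12 for H2-Ab1, with adjusted p values of 0.528, 0.242 and 0.832 (edgeR), while that of H2-Eb1 went from 0.34 to 0.16 (edgeR, adjusted p value = 0.776). Without WT hippocampus replicate 3 the value in WT was -0.020 for Cd74, -0.24 for H2-Aa, -0.019 for H2-Eb1 and 0.041 for H2-Ab1. In the genotype comparison in hippocampus, leaving out both Ttr-rich libraries gave -0.52 ± 0.27 for Cd74 and -0.72 ± 0.29 for H2-Aa (edgeR, unadjusted p values 0.0791 and 0.0324, adjusted p values 0.498 and 0.400). For H2-Ab1 and H2-Eb1 it gave -0.59 ± 0.31 and -0.49 ± 0.31 (edgeR, adjusted p values 0.502 and 0.567). Cd74 then averaged 5.35 ± 1.97 CPM (SD, n = 4) in WT hippocampus, and 3.73 ± 0.822 CPM (SD, n = 4) without miR-324.

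Markers of tissue around the brain parenchyma moved with the class II genes. Summed levels of H2-Aa, H2-Ab1, H2-Eb1 and Cd74 were 22.1 CPM in WT hippocampus replicate 3 and 22.9 CPM in miR-324-null hippocampus replicate 5, against 5.15 to 14.3 CPM in the other 8 hippocampal samples. The 5 choroid plexus markers (Ttr, Kl, Folr1, Kcnj13, Clic6) summed to 4516 and 3881 CPM in that pair and to 40.1 to 138.2 CPM in the other 8. In neocortex the sum of class II and Cd74 was highest in WT replicates 5 (18.05 CPM) and 1 (15.03 CPM), where choroid plexus markers were at 15.5 and 18.97 CPM and the 6 meningeal fibroblast markers (Dcn, Lum, Col1a1, Col1a2, Igf2, Slc6a13) at 112.2 and 121.6 CPM, in that order. It was lowest in miR-324-null replicate 5 (5.37 CPM), which also held the lowest meningeal sum, at 30.3 CPM.

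Over the 20 samples, with group means removed, the mean log2 CPM of the 4 genes correlated at 0.61 with the choroid plexus sum, 0.71 with the meningeal sum, 0.77 with the 6 border macrophage markers (Mrc1, Lyve1, Cd163, Pf4, F13a1, Ms4a7) and 0.42 with the 12 microglial markers. Over the 17 samples without high Ttr these values were -0.11, 0.58, 0.68 and 0.47. Border macrophage markers were scarce, with sums of 2.39 to 8.29 CPM over all samples and none at 0 counts in any sample. Microglial markers were plentiful, with sums of 404 to 607 CPM. Of 7 B cell and dendritic cell markers, 6 were at or below 1.02 CPM in every sample and Flt3 reached 11.7 CPM, and Itgax and Xcr1 were at 0 counts in 1 and 4 samples. The part of any of these cells in the class II values was not tested.

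**Figure D4:**
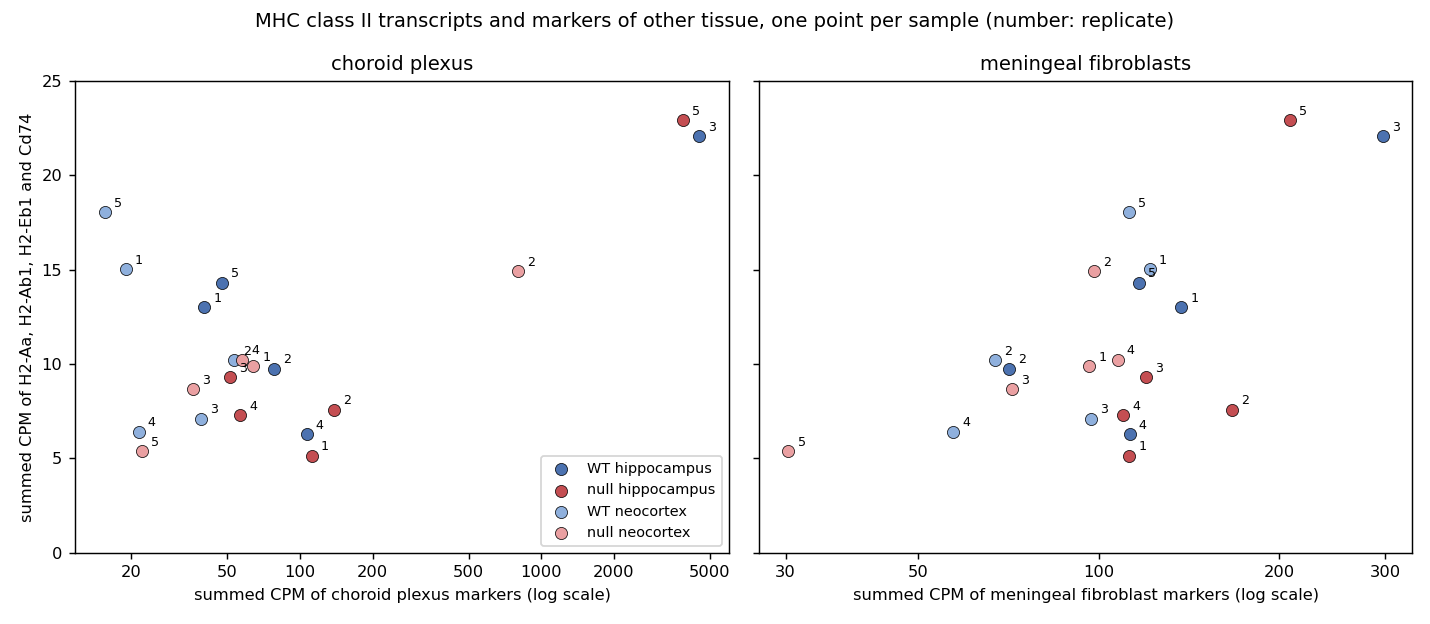
Summed CPM of H2-Aa, H2-Ab1, H2-Eb1 and Cd74 (y axis, linear) against the summed CPM of choroid plexus markers (left) and meningeal fibroblast markers (right), both x axes on a log scale, with 1 point per sample and the replicate number beside it. The pair of samples at 22.1 and 22.9 CPM have the highest choroid plexus and meningeal sums, and the neocortical samples at 15.03 and 18.05 CPM have choroid plexus sums under 20 CPM.

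The list for class II and its loading held 13 genes in the tables, of which 8 were tested. Between genotypes 0 of 8 were called in either tissue. Ctss, the lysosomal protease cathepsin S that trims the invariant chain, was the most abundant gene of the list that is not a member, with 76.4 ± 9.13 CPM in WT hippocampus against 72.3 ± 5.59 CPM in the null hippocampus. Between tissues, H2-DMa, a chain of the molecule that exchanges class II peptides, was higher in hippocampus at 0.38 ± 0.10 in WT (edgeR, adjusted p value = 0.0107) and 0.55 ± 0.11 in the null samples (edgeR, adjusted p value = 0.00179). Its level was 11.9 ± 0.548 CPM in WT hippocampus and 9.17 ± 1.40 CPM in WT neocortex. Lgmn, the lysosomal protease legumain, was lower in WT hippocampus at -0.19 ± 0.04 (edgeR, adjusted p value = 0.00391).

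Of 7 regulators of MHC genes, all were tested and 0 were called between genotypes. Rfxap, a subunit of the RFX complex that binds MHC promoters and the regulator with the highest mean TPM, was higher in hippocampus, at 21.8 ± 0.457 CPM against 18.2 ± 1.75 CPM in WT neocortex. Its log2 fold change was 0.26 ± 0.07 in WT (edgeR, adjusted p value = 0.00860) and 0.27 ± 0.07 in the null samples (edgeR, adjusted p value = 0.0159). These calls were lost in WT with the transcript length as an offset (edgeR, adjusted p value = 0.105) and in the null samples without the Ttr-rich libraries (edgeR, adjusted p value = 0.0682). Irf1, an interferon-induced transcription factor, was higher in hippocampus in miR-324-null samples at 0.38 ± 0.10 (edgeR, adjusted p value = 0.0114). Of the 7 regulators, 14.3% were called between tissues in WT and 28.6% in the null samples, against 36.1% and 27.4% of all genes. Nlrc5 and Ciita, the transactivators of class I and class II genes, averaged 0.919 and 1.09 CPM over the 20 samples.

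Because the founders included CBA/ca, whose H2 haplotype differs from that of C57BL/6, the H2 complex was also examined as a region. Between genotypes, 0 of 135 genes tested between 33 and 38 Mb of chromosome 17 were called in hippocampus and 0 of 139 in neocortex by edgeR. Of all genes, 0.115% and 0.315% were called. At an unadjusted p value of at most 0.05 (edgeR), 6 and 8 genes of the region passed, against 11.1% and 12.2% of all genes. Median log2 fold changes of the region were -0.01 and 0.00. H2-Ea-ps, the annotated locus of the class II E alpha chain that is silent in the C57BL/6 haplotype, had 0 estimated counts in each of the 20 samples, where 3 counts correspond to 0.154 to 0.237 CPM. H2-Eb1, its beta chain partner, was detected in all of them. Counts assigned to the reference transcripts do not show alleles, so haplotype itself was not analysed here.

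Whether genotype differences of the members depended on tissue was tested by the interaction. In the fit of all 20 samples, 3 of 15391 genes (0.0195%) had a genotype difference that depended on tissue, and 0 of the 10 members did, with adjusted p values of at least 0.992 (edgeR) and 0 members at an unadjusted p value of at most 0.05, against 5.57% of all genes. With the transcript length as an offset the interaction of Tap1 turned from 0.06 to -0.64 ± 0.23 (edgeR, unadjusted p value = 0.0117, adjusted p value = 0.808). Intervals of the interaction for class II members reached from -1.45 to 1.32 on the log2 scale, so that dependence of that size was not detectable.

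Use of individual transcripts was compared as shares of a gene's TPM, for 15 transcripts with a mean of at least 1 TPM in the multi-transcript members. Of 60 two-sided exact permutation tests of 5 against 5 samples, each with a smallest possible p value of 0.00794, 5 gave a p value of at most 0.05 and 0 passed Benjamini-Hochberg adjustment over the 60. The smallest p values between genotypes were those of H2-K1 in neocortex, where H2-K1-201 made up 67.5% ± 5.80 of the gene's TPM in WT and 77.3% ± 2.46 without miR-324 (SD, n = 5 each, exact permutation test, p = 0.0159, adjusted p = 0.286). H2-K1-205 took the opposite part, at 21.0% ± 4.62 and 13.1% ± 1.53 (exact permutation test, p = 0.0159, adjusted p = 0.286). These transcripts share sequence, and kallisto divides reads among them by estimate.

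Genes whose variation was most like that of the members were sought among 14360 other genes with a mean of at least 1 CPM, by the Pearson correlation of log2 CPM with group means removed, over 20 samples. For the mean of the 4 class I members they were Hist1h2bc (0.87), Rps3a2 (0.86), Ryk (0.84), Sult1a1 (0.83) and Plekha3 (0.83). For the mean of H2-Aa, H2-Ab1, H2-Eb1 and Cd74 they were Foxc1 (0.88), Ppp1r3b (0.88), Serping1 (0.88), Pcolce (0.86) and Igf2 (0.84). Igf2 stood in the meningeal list above. Within class I the samples did not move as 1 block: B2m, H2-K1 and H2-D1 correlated with each other at 0.72 to 0.80, while H2-T23 correlated with them at -0.06 to 0.17.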

How the data were processed

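RNA-seq of polyadenylated RNA (stranded TruSeq libraries, total RNA from tissue) was quantified by the authors with kallisto against the mouse GRCm38 transcriptome (Ensembl release 92, per the methods), although the submitters' processing notes name GRCh38 beside kallisto and DESeq2. The kallisto version and strand setting are not given in the sources used here. The deposited tables give estimated counts (expected counts, not normalized) and TPM per transcript, both made by the authors. Here 113580 of 115270 transcripts were matched by identifier to GENCODE M21 genes, and the rest held at most 0.556% of a sample's counts. Estimated counts were summed per gene and rounded, and TPM summed. CPM are TMM-scaled. edgeR 4.0.16 in R 4.3.3 (filterByExpr, TMM, glmQLFit, glmQLFTest, Benjamini-Hochberg over all genes, at most 0.05) fitted each comparison on its 10 samples and the interaction on all 20. SE is the log2 fold change divided by the square root of F. Depth was 12752439 to 19617765 counts, and intervals and the floor of 3 counts cover counting error or sample spread only. Shares of transcripts were compared by exact permutation (scipy).

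On simulated data edgeR recovered 89% of 200 genes changed by 1 on the log2 scale in the hippocampal genotype comparison of 14667 genes, with 7.29% unchanged genes among its calls (DESeq2 11.2%), and 92% with 10.2% in the neocortical one of 14810 genes (DESeq2 19.6%). The 200 genes were drawn at random. Changes as small as the fitted genotype differences of the members were not simulated, so these rates do not apply to them. Alternatives were DESeq2 1.42.0, RLE size factors, no filter, at least 10 counts in every sample, a transcript-length offset, a replicate block, all 20 samples in one fit, each sample left out in turn and, chosen after seeing the data, leaving out samples with Ttr above 500 CPM. Named were the 10 members, each called gene and the most abundant gene (by TPM) that is not a member in each of 4 pathway lists, up to 10 called genes of chromosome 17 between 33 and 38 Mb, and 5 genes most like each of 2 profiles. The pathway lists cover class I heavy chains, class I peptide loading, class II and regulators, and 11 lists hold markers. Some genes of these lists are not reported here by name. Members and lists were chosen with earlier results of these data known. Promoter and microRNA sequences are from RefSeq (GRCm38.p6) and 3′UTRs from GENCODE M21, and seed matches were searched in all annotated protein coding transcripts present in the tables.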

Additional observations from a re-analysis of the deposited data

Results flagged for a closer look

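Within groups of 5 samples, 7 of 40 combinations of member and group held a sample whose gap to its nearest neighbour was above 0.71 of the group's range (Dixon's 95% critical value for 5 samples), and chance flags about 1 group in 20. The 40 combinations are not independent, because several members varied together over the samples, so that rate is no test of the 7. Of these, 5 were miR-324-null hippocampus replicate 5, the sample with 3756 CPM of Ttr: B2m at 84.6 CPM, H2-D1 at 43.2 CPM, H2-Aa at 4.31 CPM, H2-Ab1 at 3.30 CPM and Cd74 at 10.9 CPM were each the highest of that group. Tapbp was highest in WT hippocampus replicate 3, at 31.2 CPM, the sample with 4321 CPM of Ttr. H2-T23 was highest in miR-324-null neocortex replicate 5, at 33.3 CPM, which also held the lowest meningeal marker sum of all 20 samples.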

How the results depend on the processing

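No member was called between genotypes under any alternative run. The number of genes called in hippocampus, 17, was 9 with at least 10 counts in every sample, 139 by DESeq2, 4 with a replicate block and 79 with all 20 samples in one fit, and 10 to 31 with 1 sample left out. In neocortex, 47 became 26 with at least 10 counts, 240 by DESeq2, 30 with the length offset and 30 with the block, and 27 to 566 with 1 sample left out, the highest without miR-324-null replicate 5. For the interaction, 3 became 6 by DESeq2, 1 with the offset and 1 without the Ttr-rich samples, and 1 to 20 with 1 sample left out.

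Between tissues H2-T23 was called under every alternative, at -1.04 to -1.01 on the log2 scale in WT and -1.15 to -1.05 in miR-324-null samples, and at -1.10 to -0.95 and -1.15 to -0.96 with 1 sample left out. H2-D1 joined it, making 2 members, in WT by DESeq2 (-0.26), with the offset (-0.35) and with the block (-0.26, adjusted p value 0.0145), and in miR-324-null samples with the block (-0.25, adjusted p value 0.0223), and the count was 1 to 2 in each genotype with 1 sample left out. The labels do not say that a number marks 1 animal. Same-numbered samples correlated in their deviations at -0.21 to 0.18 between genotypes, -0.12 to 0.11 between WT tissues and 0.012 to 0.25 between miR-324-null tissues, where 4 of 5 pairs were above 0.1 and 3 matched best both ways, a hint of pairing in the data and not in the design.

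No value that turned sign was called. In hippocampus the genotype value was 0.021 (offset) and 0.035 (without the Ttr-rich samples) for Tapbp and -0.28 (offset) for Tap1. In miR-324-null samples the tissue value was -0.052 (offset), -0.15 (block) and -0.44 (without the Ttr-rich samples) for H2-Aa, -0.20 (offset) for Tap1, -0.079 (block) and -0.25 (without the Ttr-rich samples) for Cd74, and 0.0070 for Tapbp and -0.12 for H2-Ab1 without the Ttr-rich samples. With 1 sample left out, genotype values ran from -0.070 to 0.031 (Tapbp) and -0.73 to 0.028 (H2-Eb1) in hippocampus, and in neocortex from -0.28 to 0.10 (Cd74), -0.10 to 0.10 (H2-T23), -0.074 to 0.0068 (Tapbp) and -0.46 to 0.10 (H2-Ab1). Tissue values in WT ran from -0.020 to 0.41 (Cd74), -0.24 to 0.33 (H2-Aa), -0.019 to 0.45 (H2-Eb1) and -0.14 to 0.0093 (H2-K1), and in miR-324-null samples from -0.079 to 0.0046 (Tapbp), -0.44 to 0.22 (Cd74), -0.60 to 0.18 (H2-Aa), -0.18 to 0.68 (H2-Eb1) and -0.29 to 0.39 (H2-Ab1). The interaction of H2-T23 ran from -0.15 to 0.067, and that of Tap1 from -0.047 to 0.12 and was -0.64 with the offset. The cause of these changes was not tested. Counts of 8 to 71 per sample limit what the 3 class II chains can show.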

Other observations

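The remaining marker lists gave the following values. Of 10 interferon response genes (among them Ifit1, Ifit3, Irf7 and Isg15), 10 were tested and 0 were called between genotypes in either tissue, with summed levels of 72.2 to 90.04 CPM in WT hippocampus, 74.4 to 84.8 CPM in miR-324-null hippocampus, 69.2 to 78.8 CPM in WT neocortex and 66.5 to 74.7 CPM in miR-324-null neocortex. Between tissues 1 was higher and 1 lower in WT hippocampus, and 1 was higher in miR-324-null hippocampus. These calls were 20% and 10% of the list, against 36.1% and 27.4% of all genes. Of 12 microglial markers, 0 were called between genotypes by edgeR, while 12 of 12 had fitted values below 0 in hippocampus. Of them, 3 had an unadjusted p value of at most 0.05 there (edgeR). The paper's own DESeq2 analysis did list 1 of these markers, C1qb, as significantly lower without miR-324, in hippocampus and in neocortex alike. C1qb lay at 47.4 to 56.9 CPM in WT and 40.0 to 43.5 CPM in miR-324-null hippocampus. In neocortex it lay at 43.7 to 53.5 CPM and 37.8 to 46.1 CPM, in that order. The 6 T cell markers summed to 0.976 to 2.35 CPM in hippocampus and 1.63 to 7.86 CPM in neocortex. Cd4, the 1 of them abundant enough to be tested between tissues, was lower in hippocampus in both genotypes, and Cd3g and Cd8b1 were at 0 counts in 10 and 9 of the 20 samples. Blood markers (Hba-a1, Hba-a2, Hbb-bs, Hbb-bt, Alas2) summed to between 214 and 1386 CPM, and 0 of 5 were called in any comparison. Of 5 neocortical markers (Rorb, Cux2, Lamp5, Fezf2, Tbr1), 4 were lower in hippocampus in each genotype and 0 were called between genotypes. In neocortex 5 of 5 had fitted genotype values below 0 and 2 an unadjusted p value of at most 0.05 (edgeR), against 12.2% of all genes. In hippocampus these counts were 3 and 0. In neocortex the 5 summed to 583 to 659 CPM in WT and 439 to 718 CPM in miR-324-null samples. Of the choroid plexus (4 tested in hippocampus, 3 in neocortex), meningeal (6 and 6), border macrophage (3 and 3), endothelial (6 and 6) and B cell and dendritic cell markers (1 and 1), 0 were called between genotypes, while the 3 choroid plexus markers and the 3 hippocampal markers tested in neocortex each had a fitted value above 0 and an unadjusted p value of at most 0.05 (edgeR). Between tissues, 3 of 4 choroid plexus and 2 of 6 meningeal markers were higher in WT hippocampus, and 1 of 4 and 2 of 6 in miR-324-null hippocampus.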
